A study of Mus musculus with 24 samples.

Results

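The protein-coding genes of the cytosolic ribosome were examined in RNA-seq libraries of mouse spinal cord microglia. Members were the protein-coding genes whose mm10 symbol is Rpl or Rps followed by a digit, or is *Rpsa*, *Rplp0*, *Rplp1* or *Rplp2*. Of 331 annotated names in the count table that fit this pattern, 229 were not protein coding, 6 were pseudogene copies with -ps in the name and 10 were Rps6k kinases, which left 86 members of 39017 gene identifiers. They were 46 large-subunit genes, 31 small-subunit genes, 8 paralogs or retrogenes of such genes, and *Rps19bp1*, which fits the name pattern but encodes a binding partner of Rps19 rather than a subunit. Of the 86, 80 had enough counts to be tested, namely 45 large-subunit genes, 28 small-subunit genes, 6 paralogs and *Rps19bp1*; *Rpl38*, *Rps13*, *Rps16*, *Rps27*, *Rpl3l* and *Rpl10l* did not.

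The study compared mice with a conditional knockout of *Kdm6a* (cKO) with wildtype mice (WT), separately in females and males. *Kdm6a*, on the X chromosome, encodes a demethylase that strips a silencing mark from histone H3. The 24 libraries fell into 4 groups of 6, which were female cKO, female WT, male cKO and male WT. All came from mice with experimental autoimmune encephalomyelitis, an immune model of multiple sclerosis, and the series text describes the mice as Tmem119-Cre:RiboTag. In this system Cre made under the microglial promoter of *Tmem119* switches on a tagged form of Rpl22, itself one of the members. The labels give total RNA and describe no pull-down of tagged ribosomes, and they state neither strain nor age. Sample titles carry a number that most libraries share with others of their genotype, often across the sexes, and the labels do not say what it stands for. Nothing in them says outright that each library is a separate animal, so the p-values measure the spread between these libraries, which may be technical.

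Ribosomal proteins are needed in nearly equal amounts, because each cytosolic ribosome holds about one copy of most of them. Their mRNAs commonly begin with a C followed by a run of pyrimidines, the terminal oligopyrimidine (TOP) motif, through which mTORC1 signalling and the RNA-binding protein Larp1 control their translation and stability. The family has also left many processed pseudogenes in mammalian genomes, copies of its spliced mRNAs, so that reads from one gene can match many places.

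Some genes that the table lists separately are close or exact copies of each other. The first 60 coding bases of the GENCODE M21 transcripts are shown for 1 pair with identical and 1 pair with similar coding sequence. Capitals mark bases that differ within a pair.

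Rps27: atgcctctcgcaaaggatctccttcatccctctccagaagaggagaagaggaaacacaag
Rps27rt: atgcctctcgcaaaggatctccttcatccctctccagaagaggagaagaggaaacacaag
Rpl36a: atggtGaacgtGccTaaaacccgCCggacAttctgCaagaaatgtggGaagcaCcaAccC
Rpl36al: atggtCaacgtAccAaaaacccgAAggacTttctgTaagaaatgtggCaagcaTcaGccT

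*Rps27*, on chromosome 3, and its retrogene *Rps27rt*, on chromosome 9, had identical coding sequences over all 255 bases. *Rps27* was credited with 126 counts over the 24 libraries and *Rps27rt* with 44018, so reads from the shared coding part cannot be assigned to either gene with certainty. *Rpl36a* on chromosome X and *Rpl36al* on chromosome 12 differed at 11 of these 60 bases and at 39 of 321 in all (87.9% identity). The same comparison gave 85.3% identity for *Rpl39* and *Rpl39l* over 156 bases and 84.8% for *Rpl10* and *Rpl10l* over 645 bases.

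The TOP letters were searched at annotated start sites. Of 66 members with a RefSeq start window (GRCm38.p6), 14 (21.2%) had a C at an annotated start followed by at least 4 more pyrimidines on the transcribed strand, against 813 of 27025 genes (3.01%). The share was 20.6% of 34 large-subunit genes, 26.1% of 23 small-subunit genes and 0 of 69 mitochondrial ribosomal protein genes. With a shift of up to 5 bases to either side allowed, 30 of 66 members (45.5%) held such a run, against 21.2% of all genes and 24.6% of mitochondrial ribosomal protein genes. Annotated starts can be off by some bases, and a match or its absence describes these letters in these windows and nothing more. Windows of 10 bases before and 20 bases from the start are shown for genes described below or with long runs, with the longest run that starts within 5 bases of the annotated start in capitals, and no capitals where none did. Runs elsewhere in a window are left in lower case, and a run that begins earlier is capitalised from the edge of that range.

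Rpl15 chr14:18270967-18270996, minus strand: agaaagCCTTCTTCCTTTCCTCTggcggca
Rpl35 chr2:39005112-39005141, minus strand: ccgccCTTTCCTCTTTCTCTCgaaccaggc
Rps6 chr4:86857348-86857377, minus strand: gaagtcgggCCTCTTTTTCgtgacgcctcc
Rps27 chr3:90213629-90213658, minus strand: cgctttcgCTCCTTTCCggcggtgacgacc
Rps27rt chr9:114982720-114982749, minus strand: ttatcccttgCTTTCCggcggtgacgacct
Rpl36al chr12:69184048-69184077, minus strand: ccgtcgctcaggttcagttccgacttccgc
Rpl4 chr9:64173377-64173406, plus strand: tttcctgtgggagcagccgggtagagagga

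*Rps27* and *Rps27rt* share the end of the run and the bases after it, and differ upstream. *Rpl36al* and *Rpl4* had no run starting within 5 bases of the annotated start.

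The libraries held 27110133 to 40554736 counts each, and TMM factors, which correct for composition, ranged from 0.873 to 1.17. The 9 microglial markers summed to at least 16022 CPM (counts scaled to library size) in every library, while oligodendrocyte markers reached 3429 CPM and neuron markers 246 CPM. *Kdm6a* itself was at 1.56 to 3.48 CPM (median 2.56) in female cKO, against 2.2 to 6.09 CPM (median 4.46) in female WT. In males it was at 0.648 to 1.73 CPM (median 0.961) in cKO, against 1.97 to 4.03 CPM (median 2.70) in WT. The groups overlapped in females (2-sided exact permutation p = 0.0108, n = 6 each) and did not overlap in males (p = 0.00216, the smallest this exact test allows).

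Ribosomal protein genes were counted at very unequal levels. All 86 members together held 0.239% to 0.482% of a library's counts. The 235 entries with names of the same pattern that were not protein coding or had -ps in the name held 0.367% to 0.749%. Pseudogenes of the family with other names, such as Gm10288 for *Rpl11*, are not in that share. Levels were taken as CPM per kilobase of exon, averaged over the 24 libraries. Without the paralogs they ran from 0.0367 for *Rps13* to 317 for *Rpl8*. The highest large-subunit genes were *Rpl8* (317), *Rpl4* (208) and *Rplp1* (185), the last a stalk protein that helps recruit elongation factors. In the small subunit *Rps15* (264) and *Rps9* (151), both structural subunits, were the highest. At the other end *Rps13*, *Rpl38*, *Rps27* and *Rps16* had 72, 118, 126 and 128 counts over all 24 libraries. *Rpl10l*, which is expressed in the testis, had 0 of 759148106 counts, which allows a level of up to 0.00395 CPM (3 counts, counting error only). *Rpl3l*, the paralog of heart and skeletal muscle, had 12 counts, all of them in female libraries.

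The measured level was set beside how much of the coding sequence is unique. For each gene the share of coding 50-base words found in no other annotated gene was computed. Its median over the 77 core subunit genes was 9.68%, and 25 of them had none. Those 25 had a median level of 1.47 CPM per kilobase and held 6.35% of the core genes' counts. The 11 genes at 50% or more had a median of 66.1 CPM per kilobase and held 69.9% of the counts, among them *Rpl41*, *Rps3*, *Rpl8*, *Rpl4*, *Rpl22*, *Rpl32*, *Rps15*, *Rps9* and *Rps21*. Across the 77 genes, which share libraries and are not independent, Spearman's rho between the unique share and the level was 0.65, with 0.60 in the large and 0.76 in the small subunit. *Rps19* was low, at 0.312 CPM per kilobase, with 47% of its coding words unique, and *Rpl13a* was high, at 44.9 CPM per kilobase, with 2.5% unique. With the unique share taken over whole transcripts, untranslated parts and all isoforms included, rho was lower, at 0.32 (0.39 in the large and 0.26 in the small subunit). How reads that match several places were counted is not given in the labels, and its part in these levels was not tested. A level below is therefore the level of the table's entry, and order among members was not read as order of mRNA amount.

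**Figure D1:**
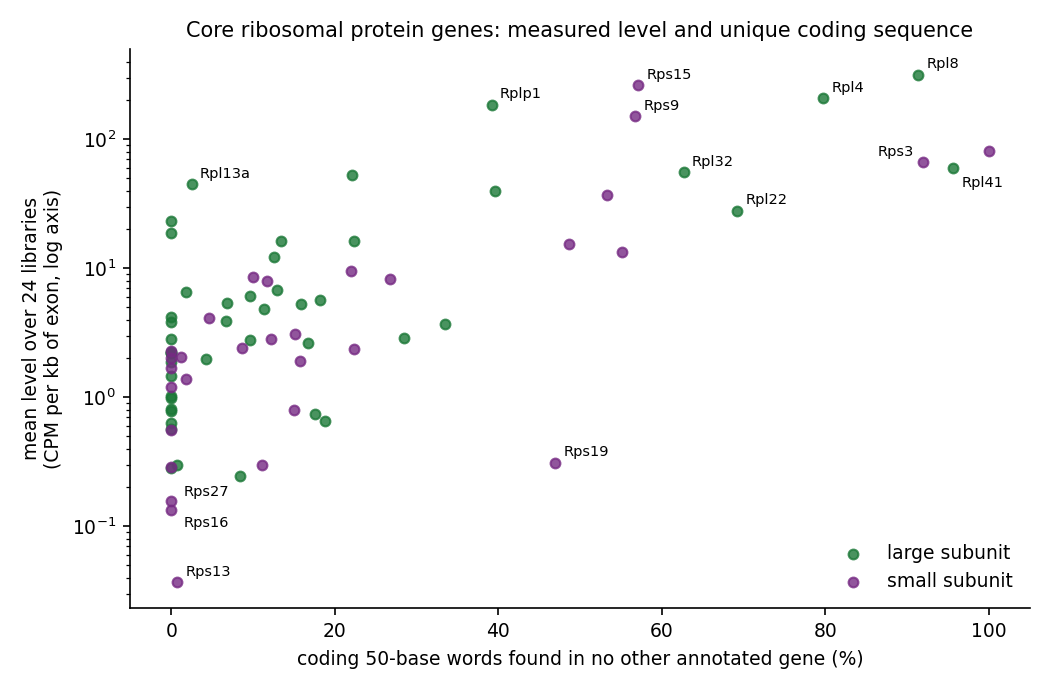
Each point is 1 of 77 core subunit genes (green, large subunit; purple, small subunit), with the share of its coding 50-base words found in no other annotated gene on the x axis (%) and its mean level over 24 libraries on the y axis (CPM per kilobase of exon, log axis). Genes at 50% or more had a median of 66.1 CPM per kilobase, against 1.47 for genes at 0%; *Rps19* lies low at a high share and *Rpl13a* high at a low share.

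The share of counts in the family was spread most widely in female WT. Large-subunit genes held 0.147% to 0.181% (median 0.162%) of counts in female cKO, against 0.134% to 0.271% (median 0.194%) in female WT. Small-subunit genes held 0.0918% to 0.123% (median 0.104%) in female cKO, against 0.0848% to 0.184% (median 0.130%) in female WT. The lowest and the highest share of all 24 libraries were both in female WT, in replicates 1 and 5, so the female cKO range lay inside the WT range. In males the large-subunit shares were 0.150% to 0.212% (median 0.174%) in cKO, against 0.154% to 0.201% (median 0.174%) in WT. The male small-subunit shares were 0.0976% to 0.140% (median 0.119%) in cKO, against 0.109% to 0.133% (median 0.126%) in WT. In these bulk samples fewer cells of a type and less RNA per cell cannot be told apart.

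**Figure D2:**
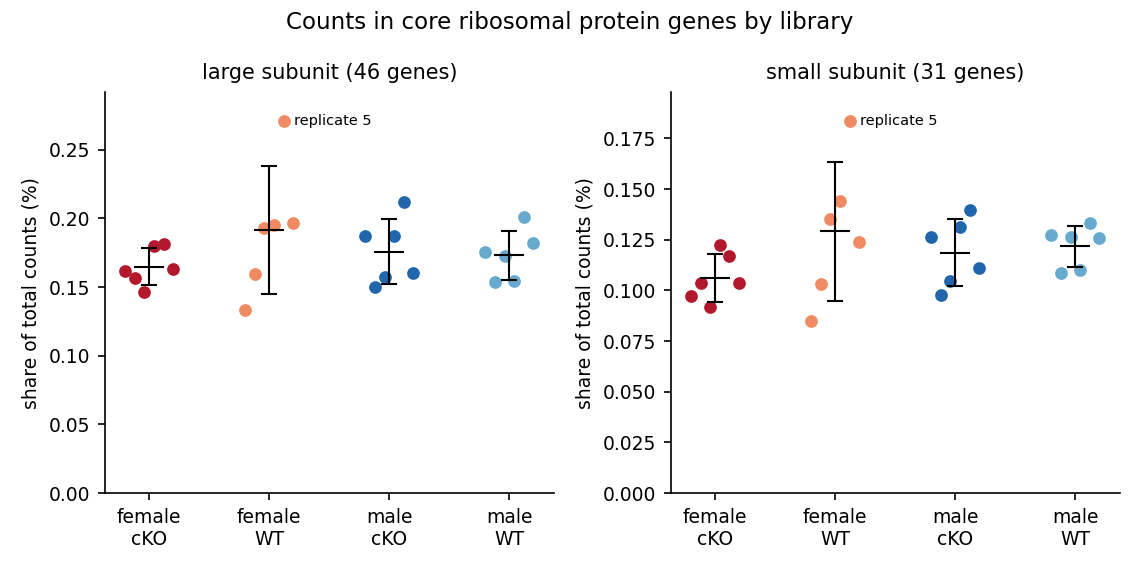
Share of total counts (%) held by 46 large-subunit and 31 small-subunit genes in each library; points are libraries, in replicate order from left to right within a group, and bars are the mean and SD (n = 6). Female WT replicate 5 is the highest library in both panels, at 0.271% and 0.184%, and female WT replicate 1 the lowest.

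In females most ribosomal protein genes had lower values in cKO than in WT, but none passed the test. Of 80 tested members, 72 (90%) had a log2 change (cKO over WT) below 0, against 52.9% of all 16535 genes tested. The median change was -0.32 over 45 large-subunit genes and -0.36 over 28 small-subunit genes, against -0.02 over all genes. With edgeR's quasi-likelihood test and an adjusted p under 0.05, 0 of 80 members were called, against 7.74% of all genes (4.41% lower and 3.32% higher). An unadjusted p under 0.05 was reached by 19 members on the lower side (10 large-subunit genes, 7 small-subunit genes and 2 paralogs), against 11% of all genes, and by 0 on the higher side, against 8.18%. DESeq2 called 1 member and limma with library quality weights 1, the same gene *Rps27rt* in both. These fits called 4.15% and 4.75% of all genes lower. No member had groups that did not overlap, against 2.1% of all genes on the lower and 2.36% on the higher side. Standard errors of the members' log2 changes were 0.092 to 0.55 (median 0.22), of the size of the medians themselves.

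**Figure D3:**
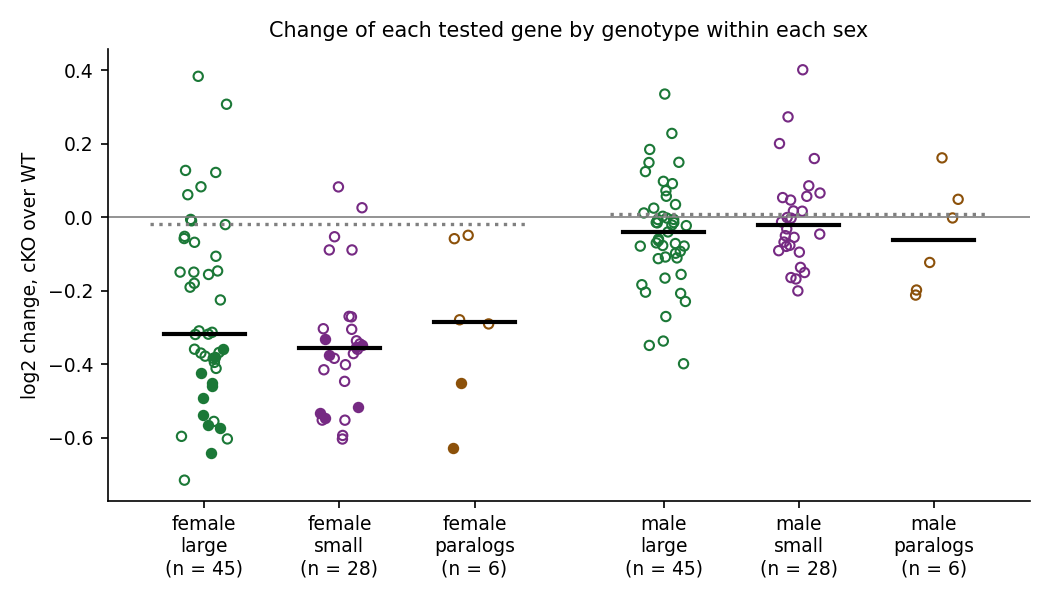
Log2 change (cKO over WT) of each tested member in females (left) and males (right), for 45 large-subunit genes, 28 small-subunit genes and 6 paralogs; filled points had an unadjusted p under 0.05, black lines are medians and dotted lines the median over all genes. Female medians lie at -0.32 for the large and -0.36 for the small subunit, male medians at -0.04 and -0.02.

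Among the large-subunit genes in females, *Rpl32* had the smallest p. It was at 35.0 to 51.0 CPM (median 43.5) in female cKO, against 35.4 to 117 CPM (median 58.8) in female WT. The lowest WT libraries lay inside the cKO range, and the log2 change was -0.57 (SE 0.21, 95% interval -0.99 to -0.14, adjusted p = 0.106). *Rpl9* was at 2.23 to 2.96 CPM in female cKO, against 2.0 to 4.65 CPM in female WT (log2 change -0.46, adjusted p = 0.163). *Rpl34* was at 4.67 to 8.61 CPM in female cKO, against 4.39 to 15.0 CPM in female WT (log2 change -0.54, adjusted p = 0.170). For all 3 genes the WT group was the wider and overlapped the cKO group. *Rpl13a*, which in human cells also takes part in a complex that represses inflammatory mRNAs, was at 62.3 to 96.5 CPM in female cKO, against 68.9 to 181 CPM in female WT (log2 change -0.42, adjusted p = 0.182). *Rpl26*, a protein that binds p53 mRNA in human cells, was at 13 to 17.8 CPM in female cKO, against 12.3 to 32.1 CPM in female WT (log2 change -0.45, adjusted p = 0.184). *Rpl8* and *Rpl4*, the entries with the most counts, had estimates nearer to 0. *Rpl8*, a protein near the peptidyl transferase centre, was at 311 to 481 CPM (median 407) in female cKO, against 292 to 836 CPM (median 407) in female WT (log2 change -0.22, SE 0.20, adjusted p = 0.597). *Rpl4*, which lines the exit tunnel, was at 338 to 437 CPM (median 386) in female cKO, against 320 to 545 CPM (median 455) in female WT (log2 change -0.19, SE 0.14, adjusted p = 0.511). *Rplp1* had a log2 change of -0.57 (SE 0.26, adjusted p = 0.208), with 54.1 to 89.8 CPM in female cKO, against 53.5 to 191 CPM in female WT.

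Small-subunit genes in females showed the same overlap. *Rps20* was at 10 to 13.1 CPM (median 11.7) in female cKO, against 11.1 to 18.7 CPM (median 14.5) in female WT (log2 change -0.37, SE 0.14, adjusted p = 0.107). *Rps25*, which some viral mRNAs need to start translation, was at 1.83 to 3.55 CPM (median 2.96) in female cKO, against 2.59 to 6.13 CPM (median 4.18) in female WT (log2 change -0.55, SE 0.21, adjusted p = 0.131). These genes lay lower in cKO by median, with overlapping groups. *Rps9* was at 264 to 439 CPM (median 310) in female cKO, against 280 to 533 CPM (median 419) in female WT (log2 change -0.35, SE 0.15, adjusted p = 0.179). *Rps15* was at 99.6 to 188 CPM in female cKO, against 101 to 329 CPM in female WT (log2 change -0.38, SE 0.26, adjusted p = 0.459). The subunit genes above 0 were 6 large-subunit and 2 small-subunit genes; the small-subunit ones were *Rps15a* at 0.08 and *Rps6*, the target of the S6 kinases, at 0.03 (adjusted p = 0.700 and 0.959).

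The paralogs included the member closest to the threshold. *Rps27rt*, the retrogene with the coding sequence of *Rps27*, was at 38.9 to 60.3 CPM (median 45.3) in female cKO, against 41 to 73.1 CPM (median 67.8) in female WT. A single WT library, replicate 2, lay among the cKO libraries, and the other WT libraries lay above all cKO libraries. The log2 change of *Rps27rt* was -0.45 (SE 0.14, 95% interval -0.75 to -0.15, adjusted p = 0.0558). Without replicate 2 it was -0.55 (adjusted p = 0.00738), but that library was picked by these same values, so a larger change follows from the choice. Over 39 alternatives the log2 change ran from -0.58 to -0.35 and the adjusted p from 0.00738 to 0.266. *Rpl36al* was at 5.05 to 10.4 CPM (median 6.27) in female cKO, against 6.56 to 17.9 CPM (median 9.48) in female WT (log2 change -0.63, SE 0.26, adjusted p = 0.163). Its near copy on chromosome X, *Rpl36a*, was at 1.78 to 3.63 CPM (median 2.86) in female cKO, against 1.64 to 2.79 CPM (median 1.99) in female WT (log2 change 0.38, SE 0.22, adjusted p = 0.382). *Rpl36a* was the tested member with the largest positive female estimate, and no test compared it with *Rpl36al*. *Rpl7l1*, a paralog of *Rpl7*, was at 97.6 to 134 CPM in female cKO, against 102 to 150 CPM in female WT (log2 change -0.06, 95% interval -0.27 to 0.15, adjusted p = 0.830). *Rps27l*, a p53 target, had a log2 change of -0.28 (adjusted p = 0.666) and *Rpl39l*, best known from male germ cells, one of -0.05 (adjusted p = 0.956). *Rps19bp1* was at 14.1 to 23.5 CPM in female cKO, against 12.7 to 39.7 CPM in female WT (log2 change -0.31, adjusted p = 0.472).

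The tagged gene *Rpl22* and its paralog *Rpl22l1*, whose product can replace Rpl22 in mouse ribosomes, were not called in either sex. *Rpl22* was at 65.4 to 91.3 CPM (median 74.2) in female cKO, against 68.8 to 103 CPM (median 84.8) in female WT (log2 change -0.16, SE 0.11, adjusted p = 0.491). In males it was at 69.2 to 93.9 CPM (median 81.7) in cKO, against 74.8 to 90.3 CPM (median 83.2) in WT (log2 change -0.04, 95% interval -0.27 to 0.19). *Rpl22l1* was at 0.411 to 1.62 CPM in female cKO, against 1.0 to 1.36 CPM in female WT, and its log2 change of -0.29 had a wide interval (-1.04 to 0.46). In males *Rpl22l1* was at 0.191 to 2.09 CPM in cKO, against 0.612 to 2.27 CPM in WT. The groups overlapped throughout, and 2-sided exact permutation tests of 6 against 6 libraries gave p = 0.247 in females and 0.604 in males for *Rpl22*, and 0.238 and 0.619 for *Rpl22l1*. The X-linked members, on the same chromosome as *Kdm6a*, were not called either. *Rps4x* was at 9.79 to 15.3 CPM in female cKO, against 11.1 to 19.7 CPM in female WT (log2 change -0.35, adjusted p = 0.205). *Rpl10* and *Rpl39* had female changes of -0.06 (adjusted p = 0.931) and -0.02 (adjusted p = 0.985), both near 0.

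**Figure D4:**
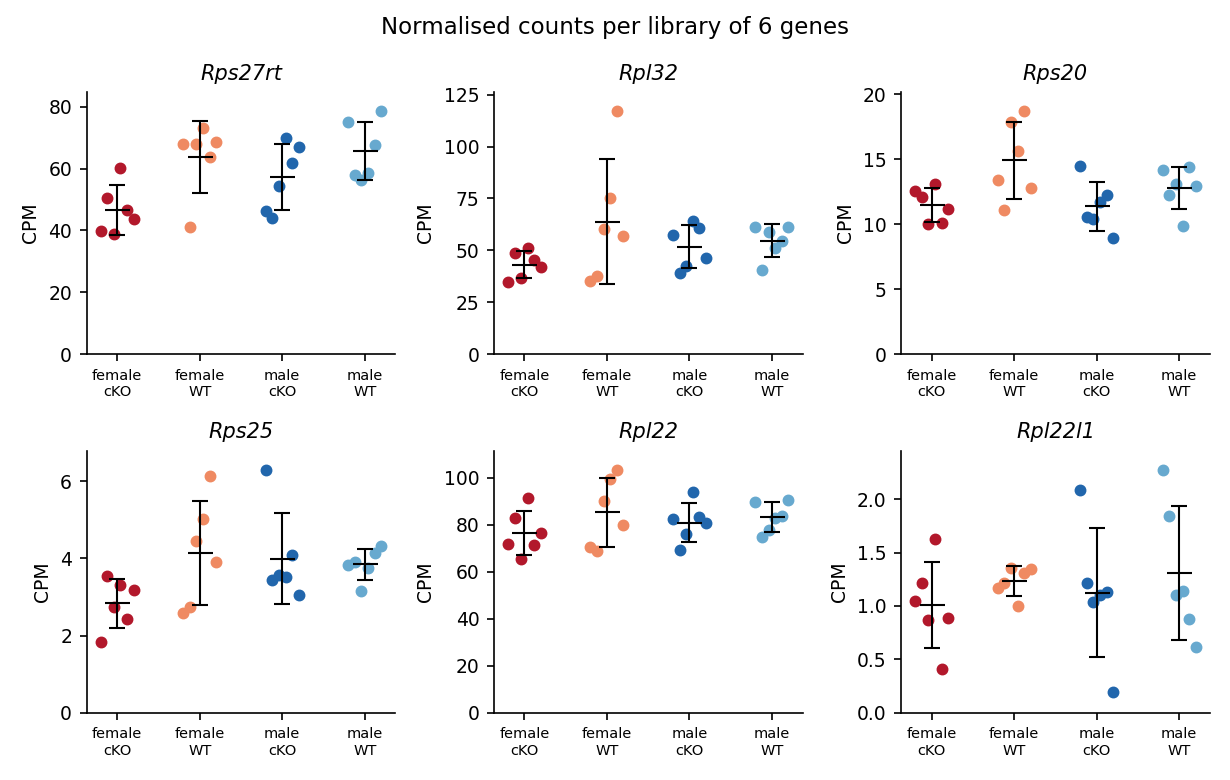
Normalised counts (CPM) per library of 6 genes in the 4 groups; points are libraries, in replicate order from left to right within a group, and bars are the mean and SD (n = 6). *Rps27rt*, *Rpl32*, *Rps20* and *Rps25* each have an unadjusted p under 0.05 in females and overlap between female cKO and female WT, and *Rpl22* and *Rpl22l1* overlap in both sexes.

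In males the family's values in cKO and WT were close. The median log2 change was -0.04 over large-subunit genes and -0.02 over small-subunit genes, against 0.01 over all genes, and 53 of 80 members were below 0, against 47.8% of all genes. Of the 80, 0 were called by edgeR, DESeq2 or limma with quality weights, against 0.187% of all genes by edgeR. At an unadjusted p under 0.05 there were 0 members in either direction, against 2.85% of all genes on the lower and 2.01% on the higher side. The large-subunit gene with the smallest p was *Rpl12*, part of the base of the stalk, at 4.70 to 8.12 CPM (median 6.02) in male cKO, against 5.4 to 9.86 CPM (median 8.02) in male WT (log2 change -0.34, SE 0.18, adjusted p = 1.0). Its female change was of like size, -0.32 (SE 0.18, adjusted p = 0.345). *Rpl15* leaned the other way, with 35.5 to 56.9 CPM in male cKO, against 28.8 to 47.3 CPM in male WT (log2 change 0.18, SE 0.14, adjusted p = 1.0). *Rps6* was at 2.29 to 3.94 CPM in male cKO, against 2.08 to 3.39 CPM in male WT (log2 change 0.27, SE 0.17, adjusted p = 1.0). *Rps19*, a gene mutated in human Diamond-Blackfan anaemia, had the largest positive male estimate, 0.40 (SE 0.28, 95% interval -0.18 to 0.98, adjusted p = 1.0). With intervals of this width, changes of the size of the female medians were not detectable for most single genes. *Rps27rt* was at 44.1 to 69.7 CPM (median 58.2) in male cKO, against 56.4 to 78.5 CPM (median 63.1) in male WT (log2 change -0.20, SE 0.14, adjusted p = 1.0).

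Set side by side, the female change lay below the male change in 68 of 80 members (34 of 45 large-subunit and 27 of 28 small-subunit genes), against 54% of all genes. The sign was negative in both sexes for 49 members, in females alone for 23, in males alone for 4 and in neither for 4. The test of the difference between the sexes called 0 members by edgeR, DESeq2 or limma with quality weights, against 0.411% of all genes by edgeR, and 0 had an unadjusted p under 0.05, against 4.06% of all genes below 0 and 3.04% above. The members with the smallest p were *Rps25* (difference in log2 change, female minus male, -0.60, 95% interval -1.21 to 0.02, adjusted p = 0.720) and *Rps2* (-0.56, 95% interval -1.14 to 0.02, adjusted p = 0.723). So no single member was shown to respond differently in females and males. The count at an unadjusted p under 0.05 depended on the fit, always below 0. It was 9 of 80 with libraries grouped by title number and 15 of 81 with replicates 4 to 6 alone. With replicates 1 to 3 alone it was 0 of 80. These fits called 0 members, and their shares of all genes at that p are not given here. Averaged over the sexes, 0 members were called by edgeR, against 6.54% of all genes, and 10 had an unadjusted p under 0.05, all lower in cKO (9.54% of all genes lower and 7.44% higher). Of the 80, 68 were below 0, against 52.4% of all genes. *Rps27rt* was again the closest (log2 change -0.32, adjusted p = 0.0561), and it was called by DESeq2 (adjusted p = 0.0357) and by limma with quality weights (adjusted p = 0.00900).

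Females and males were also compared within a genotype. Within cKO, 0 members were called, against 1.98% of all genes; 61 of 80 were below 0 (female over male), against 50.4% of all genes. *Rps25* alone had an unadjusted p under 0.05, against 5.03% of all genes lower and 5.35% higher in females. *Rps25* was at 1.83 to 3.55 CPM in female cKO, against 3.06 to 6.29 CPM in male cKO (log2 change, female over male, -0.49, SE 0.21, adjusted p = 0.372). Within WT, 0 were called, against 0.0363% of all genes, and 21 of 80 were below 0, against 43.1% of all genes. There *Rpl27a* alone had an unadjusted p under 0.05 by edgeR, against 2.2% of all genes higher and 0.943% lower in females, with 57.5 to 85.8 CPM in female WT, against 52.0 to 67.2 CPM in male WT (log2 change 0.24, SE 0.11, adjusted p = 1.0). DESeq2 and limma with quality weights called 0 members in either comparison, and DESeq2 gave 2 with an unadjusted p under 0.05 within WT and 1 within cKO.

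The female difference was smaller without a single library, female WT replicate 5. It was the highest of its group for 56 of the 80 members (70%). Its median log2 excess over the other 5 libraries was 0.66. The same count over all genes was not made. Replicate 5 was picked here for high values, so changes nearer to 0 without it follow from that choice. Without replicate 5 the female medians were -0.15 for the large and -0.20 for the small subunit. In that fit 57 of 80 members were below 0, against 50.7% of all genes. Without it 2 members had an unadjusted p under 0.05 on the lower side, fewer in proportion than the 8.54% of all genes. *Rps27rt* hardly moved (log2 change -0.45, adjusted p = 0.0794), whereas without it *Rpl32* was at -0.30 and *Rpl8* at 0.03. Female WT replicates 1 and 2 stood at the other end, lowest of their group for 41 and 27 members. Both were picked here for low values, so lower changes without them follow from that choice. Without replicate 1 the medians were -0.38 and -0.45. In that fit 3 of 80 members were called lower, *Rpl32* and *Rpl34* among them, against 4.42% of all genes. Without replicate 2, 6 were called lower, among them *Rps20*, *Rpl9*, *Rps27rt*, *Rpl32* and *Rpl26*, against 5.75% of all genes called lower in that fit. In males the medians stayed between -0.11 and 0.03 whichever library was left out.

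**Figure D5:**
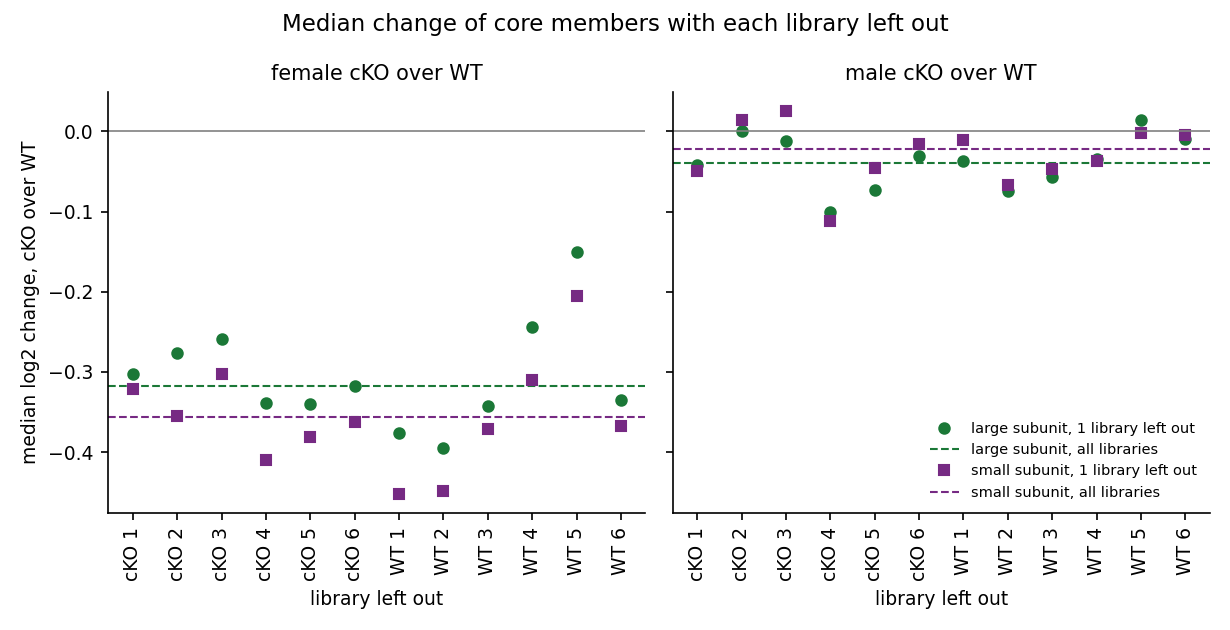
Median log2 change (cKO over WT) of large-subunit (green circles) and small-subunit (purple squares) genes in females (left) and males (right) when the library named on the x axis is left out; dashed lines are the medians with all libraries. The female medians come closest to 0 without WT replicate 5, at -0.15 and -0.20, and the male medians lie between -0.11 and 0.03.

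Other features of these libraries moved with the same differences. The 6 proliferation markers summed to 10.9 to 21.5 CPM in female cKO, against 11.9 to 152 CPM in female WT, with 152 CPM in replicate 5 and no more than 77.6 CPM in the others; 2 of the 6 were called lower in female cKO. Replicate 5 also had the highest sum of microglial markers, 25664 CPM, against 17181 to 19936 CPM in the other female WT libraries, and 3 of these 9 markers were called lower in female cKO. Markers of monocyte-derived cells summed to 1.03 to 2.89 CPM in female cKO, against 3.04 to 10 CPM in female WT (2 of 5 tested called lower), and endothelial markers to 103 to 162 CPM, against 41.2 to 89.5 CPM (1 of 4 called higher). The median change over a list was above 0 for the microglial markers (0.19) and below 0 for the endothelial ones (-0.58), against the direction of their sums. No marker of these 4 lists was at 0 in all libraries. Of all genes, 4.41% were called lower and 3.32% higher in females. In the other marker lists, neurons, astrocytes, oligodendrocytes, T cells and fibroblasts among them, 0 markers were called in females. The part of these cell markers in the ribosomal protein values was not tested. Replicates 1 to 3 and 4 to 6, sets in accession order that the labels do not explain, differed too: fitted alone, replicates 1 to 3 gave female medians of -0.08 and -0.09 for the large and small subunit, and replicates 4 to 6 gave -0.42 and -0.50.

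Genes that work with the ribosomal proteins were read from lists of companions. Beside their female counts stand the shares of all genes given above, 7.74% called, 4.41% called lower, 11% lower at an unadjusted p under 0.05 and 52.9% below 0. Of 3 subunit genes with other names, 0 were called in either sex and 0 had an unadjusted p under 0.05. *Rack1*, a signalling scaffold on the small subunit, averaged 148 CPM in female cKO and 185 CPM in female WT (log2 change -0.32, adjusted p = 0.472). Without female WT replicate 5 its change was -0.08. Of 20 elongation factors and other TOP transcripts, 18 were below 0 in females (median -0.19) and 0 were called, with 1 at an unadjusted p under 0.05. That gene was *Eef1a1*, which delivers aminoacyl-tRNA to the ribosome, with a mean of 1301 CPM in female cKO and 1541 CPM in female WT (log2 change -0.24, SE 0.10, adjusted p = 0.151). It did not rest on the WT library named above: without that library *Eef1a1* was at -0.27 (adjusted p = 0.117) and *Eif4b* at -0.26 (adjusted p = 0.0631). Of 39 genes of ribosome biogenesis and RNA polymerase I, 0 were called in females (median -0.08, 29 below 0, 2 at an unadjusted p under 0.05); the closest was *Polr1d*, a subunit of RNA polymerases I and III, at 62.8 CPM in female cKO and 80.9 CPM in female WT (log2 change -0.36, adjusted p = 0.0886).

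Calls among the companions were few. Of 16 regulators of ribosomal protein mRNA, including the mTORC1 components and *Larp1*, 1 was called in females, against 7.74% of all genes, and 7 were below 0. It was the Myc partner *Max*, lower at 110 CPM in cKO, against 147 CPM in WT (log2 change -0.42, SE 0.12, adjusted p = 0.0230). Of 75 tested mitochondrial ribosomal protein genes, 68 were below 0 in females (median -0.20), against 52.9% of all genes, and 8 had an unadjusted p under 0.05 on the lower side, against 11%. Called were 2, both lower, against 4.41% of all genes. *Mrpl30* was at 16.4 CPM in female cKO and 23.1 CPM in female WT (log2 change -0.49, SE 0.14, adjusted p = 0.0280), and *Mrpl19* at 32.3 and 41.7 CPM in the same groups (log2 change -0.37, SE 0.11, adjusted p = 0.0450). These 3 calls lay close to the threshold and were lost in 12 (*Max*), 13 (*Mrpl30*) and 29 (*Mrpl19*) of the alternatives. Leaving out female WT replicate 5 was one of them, with log2 changes of -0.36 (*Max*, adjusted p = 0.0606), -0.38 (*Mrpl30*, adjusted p = 0.0925) and -0.26 (*Mrpl19*, adjusted p = 0.151), and the mitochondrial median then was -0.02. In males 0 companion genes were called by edgeR and 0 had an unadjusted p under 0.05, and the mitochondrial median was 0.05.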

How the data were processed

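Total RNA libraries from 24 samples were deposited by the authors as a table of raw read counts per Ensembl gene. The submitters' processing notes name bcl2fastq 2.17, FastQC, Trimmomatic and the mm10 build; aligner, counter and strand setting are not given there. Gene symbols came from the mm10 annotation. Members, lists and tests were chosen with earlier results of these data known.

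Counts were tested with edgeR 4.0.16 (R 4.3.3; quasi-likelihood test, TMM factors, filterByExpr, 4 groups in 1 fit, 16535 genes), with Benjamini-Hochberg adjustment over all genes and a threshold of 0.05. Alternatives used DESeq2 1.42.0, limma 3.58.1 and sva 3.50.0, other normalizations and filters, subsets of libraries and each library left out. The code was tested on simulated data. Genes named are *Kdm6a*, *Rpl22*, *Rpl22l1*, X-linked members, paralogs, *Rps19bp1*, the highest members per kilobase, and those with the smallest p per comparison; some genes that meet this rule are not reported here. Promoter windows came from RefSeq. Replicate numbers follow accession order.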

Additional observations from a re-analysis of the deposited data

Results flagged for a closer look

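Each set held a group's 6 values of a named member or of the family's share of counts. In 8 of 152 such sets 1 library lay far from the other 5 by Dixon's test, which chance does in about 1 of 20. All-zero sets, such as *Rpl3l* in male cKO, could not be flagged. *Rps27rt* was low in female WT replicate 2 (41 CPM). *Rpl36al* (10.4 CPM) and *Rpl3l* (0.0685 CPM, with 0 in the other libraries of the group) were high in female cKO replicate 5. *Rpl39l* (9.79 CPM) and *Rps2* (34.4 CPM) were high in female WT replicate 5. *Rps25* (6.29 CPM) was high in male cKO replicate 1, *Rps2* (27.8 CPM) in male cKO replicate 4 and *Rpl4* (584 CPM) in male WT replicate 5.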

How the results depend on the processing

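The count of members called, 0 with all libraries in each comparison, moved in 2 comparisons, always with members lower in cKO. In females it was 1 with DESeq2 (4.15% of all genes called lower) and 1 with library totals only (3.6%). It was 1 with library quality weights (4.75%) and 1 with surrogate variables (6.55%). Another setting left out 4 libraries doubted earlier, female WT replicates 2, 3 and 5 and male cKO replicate 3. Why these were doubted is not reported here. Without them it was 1, against 3.15% of all genes called lower. With a term for replicates 1 to 3 against 4 to 6 it was 6 of 80, against 6.41%. With replicates 4 to 6 alone it was 3 of 81, against 2.41%. Leaving out 1 library gave 0 to 6, with 0 in 20 of 24 fits, against 3.34% to 5.75%. Averaged over the sexes it was 1 with DESeq2, 1 with library totals only and 1 with quality weights. It was 1 without the 4 doubted libraries, 4 with the replicate term, and 0 to 3 with 1 library left out. In these named settings 977 to 1541 of all genes were called in either direction, against 1082 by edgeR with all libraries. The cause of these moves was not tested. Female medians for both subunits were below 0 in 40 of 40 settings, and were -0.05 and -0.07 with surrogate variables. Male medians were below 0 in 37 (large subunit) and 33 (small subunit) of 40. For each sex these settings include fits that left out a library of the other sex only. Among core members with at least 20% unique coding sequence, an alternative chosen after seeing the data, female medians were -0.38 and -0.36. With libraries grouped by title number in a random-effect fit (correlation within a number 0.216), 0 members were called in each comparison. Female medians were -0.29 and -0.33, and male medians were 0.06 and 0.07, above 0. The calls of *Kdm6a* (log2 change -0.79, adjusted p = 0.0993 in females, and -1.46, adjusted p = 0.328 in males), *Max* (adjusted p = 0.0582), *Mrpl30* (0.0896) and *Mrpl19* (0.134) were lost in this fit. With all libraries, edgeR called *Kdm6a* lower in females (log2 change -0.85, adjusted p = 0.0313) and in males (-1.36, adjusted p = 0.0160). That call was lost in 12 alternatives in females and 7 in males. With replicates 4 to 6 alone its adjusted p by edgeR was 0.375 in females and 0.990 in males. No paired analysis of cKO against WT was possible. Replicate numbers follow accession order, and the title numbers, shared only within a genotype, pair no cKO library with a WT library. Some title numbers hold libraries of both sexes, and of the fits here only the random-effect fit used them.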
